A study of Mus musculus with 4 samples.

Results

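The expression of 7 genes for transcription factors of fibroblasts and of the epicardium, Tcf21, Twist1, Twist2, Prrx1, Osr1, Wt1 and Tbx18, was examined in single cells of the mouse ascending aorta. The genes were chosen by name, out of 18109 genes that all the tables hold, and were followed in fibroblasts and in smooth muscle cells. Fibroblasts were taken as cells with at least 1 UMI (unique molecular identifier, one captured transcript) of Pdgfra and at most 2 of Myh11, and were also split into cells with at least 2 UMIs of Pi16, a gene of adventitial fibroblasts, and cells with 0. Smooth muscle cells were taken as cells with at least 5 Myh11 UMIs and 0 of Pdgfra. Pdgfra encodes a growth factor receptor of fibroblasts and Myh11 the smooth muscle myosin heavy chain.

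The mice were males of the strain Mef2c-mTmG, a name that joins Mef2c, whose regulatory sequence is widely used to mark the second heart field, and the double fluorescent mTmG reporter. The labels do not give the allele that drives the switch of the reporter. The second heart field is a progenitor pool that feeds the outflow tract and the root of the great arteries. Live single cells of the digested aorta were sorted by lineage label into SHF (second heart field) and CNC, a name the labels do not spell out, where the study text sets the second heart field against other origins. Aortas were taken at baseline or after infusion of angiotensin II (AngII), a peptide that constricts vessels, for 3 days. Of 4 labelled samples, 3 libraries entered the comparisons, namely SHF baseline with SHF AngII and CNC AngII, and CNC baseline was not analysed here. Each group is 1 library, the number of mice behind it is not given in the labels, and so every difference between libraries stands without a replicate check and carries no test. Sets of 3 values are given in the order SHF baseline, SHF AngII, CNC AngII, and intervals are 95% intervals of counting error only.

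Tcf21, Twist1 and Twist2 are basic helix-loop-helix (bHLH) factors, which bind DNA in pairs with the E proteins Tcf3, Tcf4 and Tcf12 and are held off it by the Id proteins. Prrx1 is a paired-related homeobox factor of mesenchyme, Osr1 an odd-skipped zinc finger factor, Wt1 a zinc finger factor of the mesothelium and the epicardium, and Tbx18 a T-box factor of the epicardium and of mural cells. In the developing heart the epicardium, a mesothelial sheet that expresses Tcf21, Wt1 and Tbx18, gives rise to fibroblasts and mural cells, and Tcf21 is kept in many resting fibroblasts.

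The promoters of Tcf21, Tbx18, Twist1 and Twist2, whose levels were lower in SHF AngII than in SHF baseline fibroblasts, are printed with that of Prrx1, whose level was not. Each run holds the 250 bases before the RefSeq start of the gene, 5′ to 3′ on the gene's own strand, from the RefSeq promoter table for GRCm38.p6, which held 5 of the 7 genes. Capitals mark matches, on either strand, to the TATA box letters TATAAA, the CCAAT box letters CCAAT and the GC box letters GGGCGG.
Tcf21, chr10:22820144-22820393, minus strand: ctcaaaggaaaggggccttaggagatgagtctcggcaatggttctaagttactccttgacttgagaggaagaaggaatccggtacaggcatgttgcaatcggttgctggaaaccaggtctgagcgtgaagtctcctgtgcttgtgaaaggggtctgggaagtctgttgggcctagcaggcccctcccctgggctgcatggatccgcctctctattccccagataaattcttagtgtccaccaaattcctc
Tbx18, chr9:87731261-87731510, minus strand: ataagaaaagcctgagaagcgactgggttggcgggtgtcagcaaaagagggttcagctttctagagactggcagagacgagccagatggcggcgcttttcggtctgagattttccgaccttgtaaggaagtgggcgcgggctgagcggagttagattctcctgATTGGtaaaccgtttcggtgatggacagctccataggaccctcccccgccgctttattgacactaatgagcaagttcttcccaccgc
Twist1, chr12:33957421-33957670, plus strand: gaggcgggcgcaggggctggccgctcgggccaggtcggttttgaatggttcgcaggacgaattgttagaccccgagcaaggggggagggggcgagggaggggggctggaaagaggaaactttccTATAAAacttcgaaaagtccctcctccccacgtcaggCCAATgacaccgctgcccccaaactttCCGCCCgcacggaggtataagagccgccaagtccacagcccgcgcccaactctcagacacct
Twist2, chr1:91801211-91801460, plus strand: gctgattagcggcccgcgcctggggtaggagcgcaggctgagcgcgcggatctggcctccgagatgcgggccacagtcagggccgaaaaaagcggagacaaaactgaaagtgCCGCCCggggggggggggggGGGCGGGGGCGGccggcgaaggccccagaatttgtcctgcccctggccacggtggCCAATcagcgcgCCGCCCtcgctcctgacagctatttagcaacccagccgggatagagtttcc
Prrx1, chr1:163313651-163313900, minus strand: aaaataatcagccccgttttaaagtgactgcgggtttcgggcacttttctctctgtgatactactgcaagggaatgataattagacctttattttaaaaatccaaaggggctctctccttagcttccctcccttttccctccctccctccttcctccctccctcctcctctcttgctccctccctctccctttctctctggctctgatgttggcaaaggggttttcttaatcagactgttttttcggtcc
The Twist1 run holds 1 match to each of the 3 motifs, the Tbx18 run 1 CCAAT match, and the Twist2 run holds 1 CCAAT and 4 GGGCGG matches, 2 of them side by side. No match to any of the 3 lies in the runs of Tcf21 and Prrx1, which says only that these letters are not in these windows. Of all 32851 promoters of that length, 12.4% hold TATAAA, 33.8% CCAAT and 32.7% GGGCGG. The general E-box CANNTG, the letters that bHLH pairs bind, is in 66.2% of all promoters and, of the 5 printed, in that of Tbx18 alone, with 1 match. GC content was 68.8% for Twist2, 62.4% for Twist1, 54% for Tbx18, 52.4% for Tcf21 and 47.6% for Prrx1, against a median of 52.4% over all promoters. None of the 4 motifs is in every printed promoter of a gene with a lower level. The GC content of each of these was above that of Prrx1, the only gene printed for contrast, and a link of GC content to level was not tested. Osr1, whose level was also lower, and Wt1 had no promoter to print.

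By the GENCODE annotation of GRCm38, Tcf21 lies at chr10:22817281-22820174, Twist1 at chr12:33957671-33959829, Twist2 at chr1:91801461-91848028, Prrx1 at chr1:163245119-163313710, Osr1 at chr12:9570116-9581500, Wt1 at chr2:105126529-105173616 and Tbx18 at chr9:87702800-87731260. Exons of Tbx18 and Twist2 overlap exons of a gene on the opposite strand (D030062O11Rik and Gm29100). Whether counting used strand is not given in the sources used here, so reads of these partners cannot be told apart from theirs. Because UMIs count captured transcript ends, levels are compared for 1 gene across cells, and not between genes.

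SHF baseline held 92474476 UMIs in 9412 barcodes, SHF AngII 147854476 in 11166 and CNC AngII 150954701 in 11098, and any pair of them shared 29 to 34 barcodes. After filtering, 3939, 2640 and 842 fibroblasts and 2259, 4649 and 6385 smooth muscle cells remained in that order. Median depth was 9534, 15485.5 and 12379.5 UMIs in fibroblasts and 12441, 13336 and 13450 in smooth muscle cells. The gates carried their markers: Dcn, a matrix proteoglycan of fibroblasts, stood at 15528, 5757 and 4662 CPM (UMIs of the gene per 1000000 UMIs of the gate) in fibroblasts and at 311, 174 and 20.3 in smooth muscle. Markers of other cells inside the fibroblast gate, each list summed, ranged from 7.70 to 169 CPM for macrophages (highest in CNC AngII), from 11.2 to 53.8 for endothelium (highest in baseline) and from 4.12 to 22.6 for mesothelium (highest in SHF AngII). Smooth muscle markers in the fibroblast gate stood at 1218, 3990 and 3879, and pericyte markers at 278, 173 and 156. The SHF baseline table lists 18760 genes under older names and the AngII tables list 32285, so AngII against baseline includes differences in how the tables were made.

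Tcf21, a factor of fibroblast identity, was far higher in fibroblasts than in smooth muscle in every library, and so were Twist2 and Prrx1. Tcf21 stood at 236 CPM in baseline fibroblasts, 135 in SHF AngII and 62.7 in CNC AngII, and in smooth muscle at 17.8, 13.7 and 0.428. No smooth muscle value came near a fibroblast value, and the lowest of all was that of CNC AngII. The fibroblast level was 13.3-fold and 9.89-fold the smooth muscle level in the SHF libraries, as log2 ratios 3.73 (3.60 to 3.86) and 3.31 (3.21 to 3.41). In CNC AngII the log2 ratio of the sums was 7.18, on 41 UMIs in 31 of 6385 smooth muscle cells. That smooth muscle level overlaps the free RNA background given below, so this ratio describes the summed UMIs and is no measure of how far expression differed.

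Twist2, a bHLH factor of dermal and other mesenchyme, stood at 79.9, 45.3 and 37.9 CPM in fibroblasts and at 8.97, 6.19 and 4.05 in smooth muscle. Its log2 ratios, 3.15, 2.87 and 3.23, lay close together in the 3 libraries. Prrx1, a homeobox factor of mesenchyme, stood at 158, 175 and 161 in fibroblasts and at 46.5, 42.3 and 43.9 in smooth muscle, with log2 ratios of 1.77, 2.05 and 1.88. It had the narrowest spread of the 7 genes over libraries within fibroblasts, and its smooth muscle level was not near 0.

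**Figure D1:**
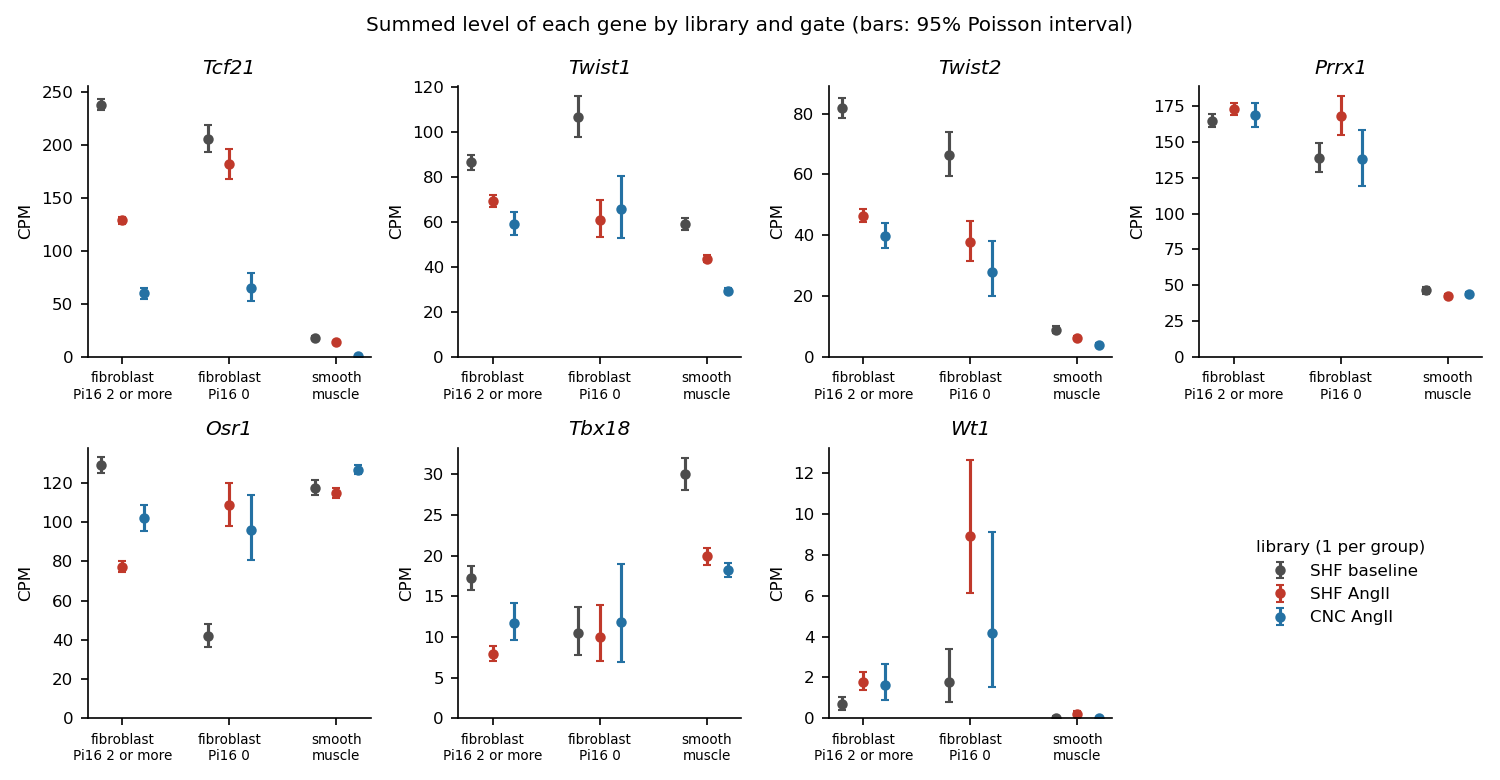
Summed level (CPM, vertical axes with their own scales) of each gene in Pi16-positive fibroblasts, Pi16-negative fibroblasts and smooth muscle, 1 point per library with 95% Poisson intervals. Tcf21, Twist2 and Prrx1 are lower in smooth muscle in all 3 libraries, and Tcf21 of CNC AngII lies at 59.8 and 64.8 in the fibroblast gates, below both SHF libraries.

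Twist1, the close relative of Twist2, was shared by both cell types: 90.3, 68.6 and 59.7 CPM in fibroblasts and 59.0, 43.6 and 29.3 in smooth muscle. Its log2 ratio was 0.61 and 0.65 in the SHF libraries and 1.03 (0.90 to 1.15) in CNC AngII, which lay past 2-fold in 9 of 15 alternative settings. Osr1 was at least as high in smooth muscle: 118, 115 and 127 CPM there against 113, 79.7 and 101 in fibroblasts. The log2 ratio was -0.05 (-0.12 to 0.01) at baseline, where the interval holds 0 and the strictest cell filter gives 0.23, then -0.53 and -0.33. Tbx18 was higher in smooth muscle in all 3 libraries, at 30.0, 19.9 and 18.3 against 16.1, 8.06 and 11.7 CPM in fibroblasts. Its log2 ratios were -0.89, -1.30 and -0.64, of which that of SHF AngII was past 2-fold. Wt1 was near the limit of detection in both: 1.24, 2.41 and 1.83 CPM in fibroblasts, and 0, 0.230 and 0.0104 in smooth muscle. In baseline smooth muscle Wt1 had 0 UMIs in 2259 cells, where 3 UMIs would be 0.102 CPM.

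Counted over the members with a mean of at least 2 CPM, 3 of 6 were 2-fold or more higher in fibroblasts at baseline (Tcf21, Twist2, Prrx1). The same held for 3 of 6 in SHF AngII and for 4 of 6 in the CNC library, where Twist1 joined them. Over all genes with that minimum, the share higher by 2-fold was 17.2%, 16.5% and 15.5%. Lower by 2-fold were 0, 1 (Tbx18) and 0 members, beside 8.18%, 9.95% and 9.7% of all genes. The median log2 ratio of the 6 members was 1.19, 1.35 and 1.45, beside 0.24, 0.14 and 0.14 over all genes. TMM scaling, which centres most genes on 0, moves these ratios by -0.25, -0.21 and -0.25. It leaves every sign above, puts Tbx18 past 2-fold at baseline too, at -1.14, and puts Twist1 within 2-fold in CNC AngII, at 0.78. The Tcf21 ratio over the alternatives ranged from 2.33 to 4.41 at baseline, then from 2.96 to 4.06 and from 5.48 to 13.6 under AngII. The value of 2.33 comes from a filter of at most 5% mitochondrial UMIs, which leaves 120 of 2259 baseline smooth muscle cells, with Dcn at 1499 CPM.

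**Figure D2:**
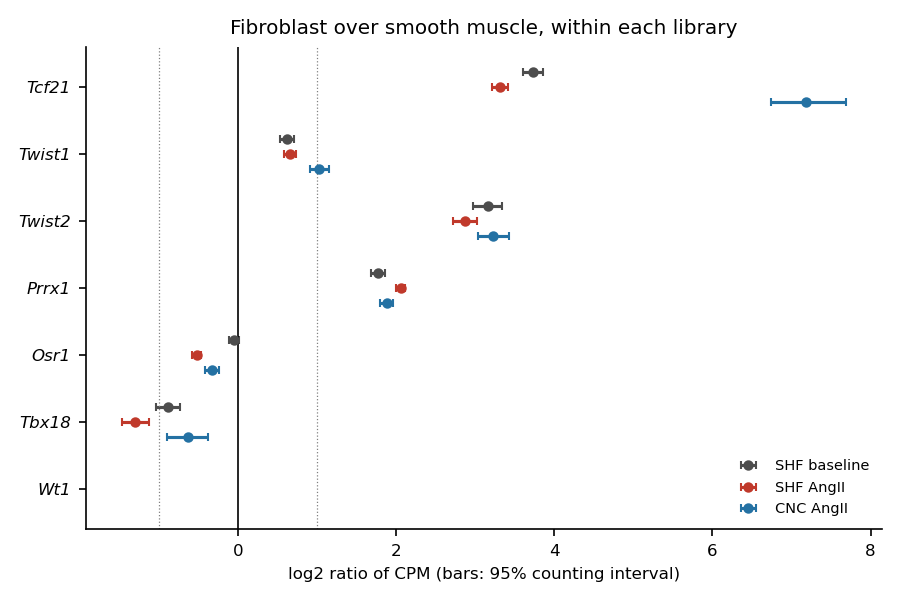
Log2 ratio of fibroblast over smooth muscle level (horizontal axis) for each gene, 1 point per library, with 95% counting intervals. Tcf21 in CNC AngII lies at 7.18, apart from 3.73 and 3.31 in the SHF libraries, and Tbx18 lies left of 0 in all 3; Wt1 is not drawn, since its mean was below 2 CPM.

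Tcf21 and Twist2 in SHF smooth muscle moved with Dcn from cell to cell, and Prrx1 did so less. Smooth muscle cells with 0 Tcf21 UMIs had Dcn at 240 CPM in SHF baseline, those with 1 had 442, and the 85 cells with 2 or more had 1287. In SHF AngII the same steps were 122, 268 and 1165, and in CNC AngII 19.7, 49.0 and 547, the last from 6 cells. By Twist2 UMIs the steps were 262, 571 and 1682 at baseline, 152, 298 and 815 in SHF AngII and 17.5, 57.9 and 63.8 in CNC AngII. By Prrx1 UMIs they were 270, 269 and 540 at baseline and 131, 175 and 290 in SHF AngII. By Twist1 UMIs they were 307, 317 and 309, then 158, 166 and 224. By Tbx18 and by Osr1 UMIs, Dcn fell with each step in both SHF libraries. The smooth muscle level of Tcf21 was 7.53%, 10.1% and 0.682% of its fibroblast level. For Dcn these shares were 2.002%, 3.01% and 0.436%, for Lum, another fibroblast proteoglycan, 4.35%, 5.56% and 0.798%, and for Pi16 0.536%, 0.885% and 0.398%. So the share of Tcf21 was above those of Dcn, Lum and Pi16 in both SHF libraries, while in CNC AngII it lay between those of Dcn and Lum. The shares of Mfap5, a gene of elastic microfibrils, were above it throughout, at 17.6%, 14.0% and 13.9%. In smooth muscle cells with 0 Dcn UMIs, a setting added after the data were seen, the log2 ratio of fibroblast over smooth muscle was 4.18, 4.06 and 7.75 for Tcf21. Twist2 had shares of 11.2%, 13.7% and 10.7%, Prrx1 of 29.4%, 24.1% and 27.2%, and Twist1 of 65.3%, 63.6% and 49.1%.

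As a background for free RNA, the 1395 macrophages of CNC AngII (Ptprc and Csf1r UMIs, median depth 11631) held 6 Tcf21, 2 Tbx18, 2 Wt1, 17 Twist1, 16 Twist2, 17 Prrx1 and 10 Osr1 UMIs. That is 0.349, 0.116, 0.116, 0.989, 0.931, 0.989 and 0.582 CPM. The Tcf21 level in CNC smooth muscle, 0.428 (0.307 to 0.580), overlaps this background (0.128 to 0.760) and is not read as expression. The levels of the other members in CNC smooth muscle, Wt1 excepted, lie above it. The SHF libraries have only 5 and 10 macrophages and give no such background.

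In SHF fibroblasts, AngII went with lower levels of Tcf21, Twist2, Tbx18, Osr1 and Twist1 and with a level of Prrx1 that was not lower. Tcf21 was at 135 against 236 CPM at baseline, 1.75-fold lower, Twist2 1.76-fold lower, Tbx18 2.002-fold lower, Osr1 1.42-fold lower and Twist1 1.32-fold lower. As log2 ratios these are -0.81 (-0.85 to -0.76), -0.82 (-0.90 to -0.74), -1.001 (-1.19 to -0.81), -0.51 (-0.57 to -0.44) and -0.40 (-0.47 to -0.32). Prrx1 was at 0.15 (0.10 to 0.20). The median ratio was -0.66 over the 6 members above the minimum and -0.29 over all genes. Against that median (median-of-ratios scaling) Tcf21 was at -0.52, Twist2 -0.53, Tbx18 -0.71, Osr1 -0.22, Twist1 -0.11 and Prrx1 0.44. Of the 6 members above the minimum, 1 was past 2-fold, Tbx18, which was so in 8 of 15 alternatives. Among all genes 14.9% were lower by 2-fold, 6.44% higher and 21.3% past it in either direction, so 1 of 6 is near the background. The summed pericyte markers were lower too, at 173 against 278 CPM, with 0 of the 4 at 0 UMIs in either library. Of these Abcc9 was at 63.4 against 158 and Kcnj8 at 49.9 against 77.6, whereas Rgs5 was at 52.9 against 35.5 and Notch3 at 7.22 against 6.86. In Pi16-negative fibroblasts this sum was at 217 against 347, where Tbx18 was at 10.0 against 10.5. The part of pericyte markers in the Tbx18 ratio was not tested.

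By the Pi16 split, the Pi16-positive cells carried the lower levels of Tcf21 (-0.89), Tbx18 (-1.12, past 2-fold in 13 of 15 alternatives) and Osr1 (-0.74), beside 15.2% of all genes lower by 2-fold there. In Pi16-negative cells Tcf21 was at -0.18 (-0.32 to -0.04) and Tbx18 at -0.05 (-0.71 to 0.58), while Twist2 was at -0.82 in both. Twist1 went the other way, at -0.32 (-0.40 to -0.25) in Pi16-positive and -0.81 (-1.04 to -0.58) in Pi16-negative cells. Osr1 and Wt1 were higher by 2-fold in Pi16-negative cells, at 1.38 and 2.28, where 8.02% of all genes were, and both rest on few cells described further on. Wt1 was too low for a ratio in the whole gate, with 108 UMIs in SHF AngII and 47 at baseline. Of the baseline UMIs, 15 came from 1 cell.

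In SHF smooth muscle the same direction was seen for 4 genes with smaller or like sizes. The log2 ratio of AngII over baseline was -0.38 (-0.54 to -0.23) for Tcf21, -0.54 for Twist2, -0.59 for Tbx18 and -0.44 for Twist1, beside a median of -0.16 over all genes. Prrx1 was at -0.14 (-0.23 to -0.04), which turns to 0.04 under TMM scaling, and Osr1 at -0.04 (-0.09 to 0.02), which turns positive in 5 of 15 alternatives. None of the 6 was past 2-fold, beside 10% of all genes in either direction. Tcf21 moved most with the settings here, from -1.41 under the strict mitochondrial filter to -0.09 with 5% of the library's profile subtracted.

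**Figure D3:**
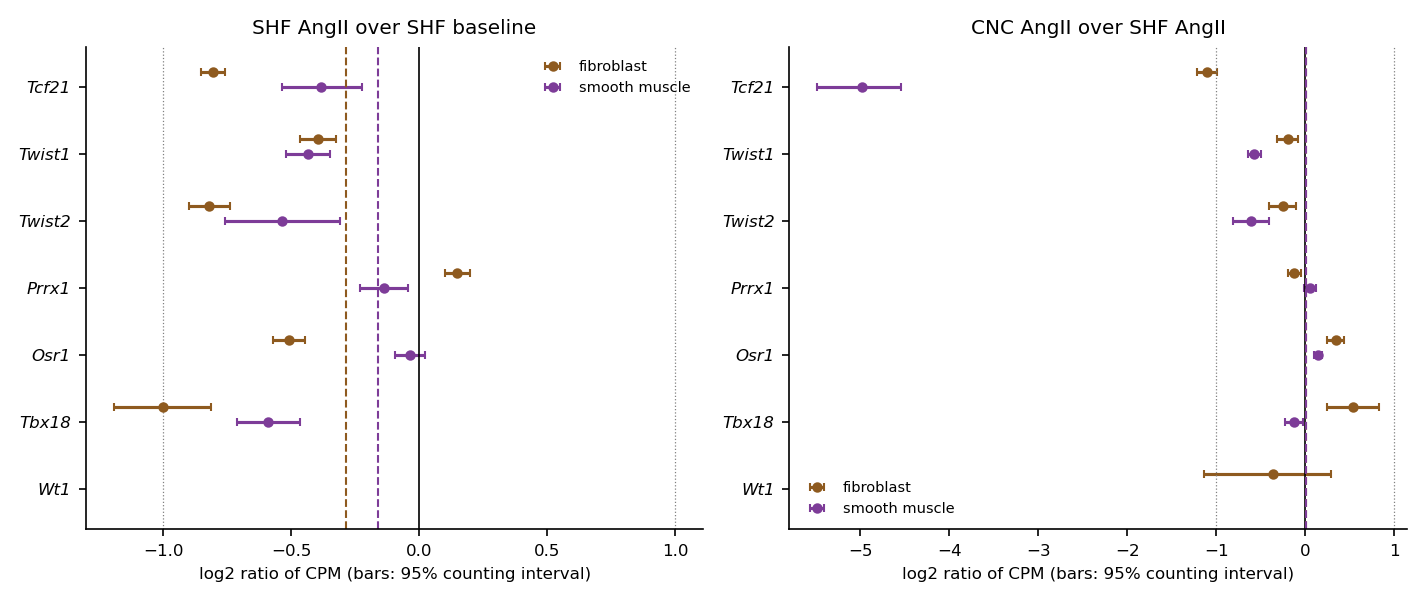
Log2 ratio between libraries (horizontal axis, scales differ between panels) for each gene in fibroblasts and in smooth muscle, with 95% counting intervals; dashed lines mark the median of all genes and dotted lines 2-fold. Prrx1 is the only gene right of 0 in fibroblasts on the left, and Tcf21 in smooth muscle lies at -4.98 on the right; Wt1 is drawn only where its mean reached 2 CPM.

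At equal depth, the libraries with lower Tcf21 sums had fewer fibroblasts with a Tcf21 UMI, and a like number of UMIs in each cell that had any. To compare shares at equal depth, each cell was thinned to 5000 UMIs, which left out 717 of 3939, 136 of 2640 and 73 of 842 fibroblasts. Then 53.8% (52.0 to 55.5%) of the baseline, 39.0% (37.1 to 41.0%) of SHF AngII and 16.5% (14.0 to 19.3%) of CNC AngII fibroblasts held Tcf21. Unthinned, at unequal depths, the shares were 70.1%, 65.0% and 22.7%, so the size of the step from baseline to SHF AngII depended on depth. Cells that held it had 2.18, 1.96 and 2.24 UMIs on average after thinning. The intervals of the 3 shares, which cover the counting of cells within 1 library each, do not overlap. The means per positive cell, given without intervals, differ by far less. Such means leave out cells with no UMI. Cells with 3 or more Tcf21 UMIs were 14.8%, 8.59% and 5.33% of thinned fibroblasts. Whether fewer cells expressed Tcf21 or each cell expressed less was not tested.

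Prrx1 was held by 46.9%, 48.8% and 46.2% of thinned fibroblasts, Twist1 by 34.6%, 26.5% and 22.9%, Twist2 by 31.3%, 20.5% and 17.4% and Osr1 by 33.8%, 27.2% and 33.8%. Tbx18 was held by 7.20%, 3.43% and 4.29%, and Wt1 by 0.372%, 0.958% and 0.650%. In thinned CNC macrophages the shares were from 0 of 1367 cells (Wt1, an exact upper limit of 0.269%) to 0.512% (Twist2 and Prrx1). The interval of the Wt1 share in CNC fibroblasts, 0.211 to 1.51%, overlaps that limit. In thinned smooth muscle Tcf21 was held by 8.40%, 5.88% and 0.238% of cells, and Osr1 by 38.3%, 40.3% and 45.9%.

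**Figure D4:**
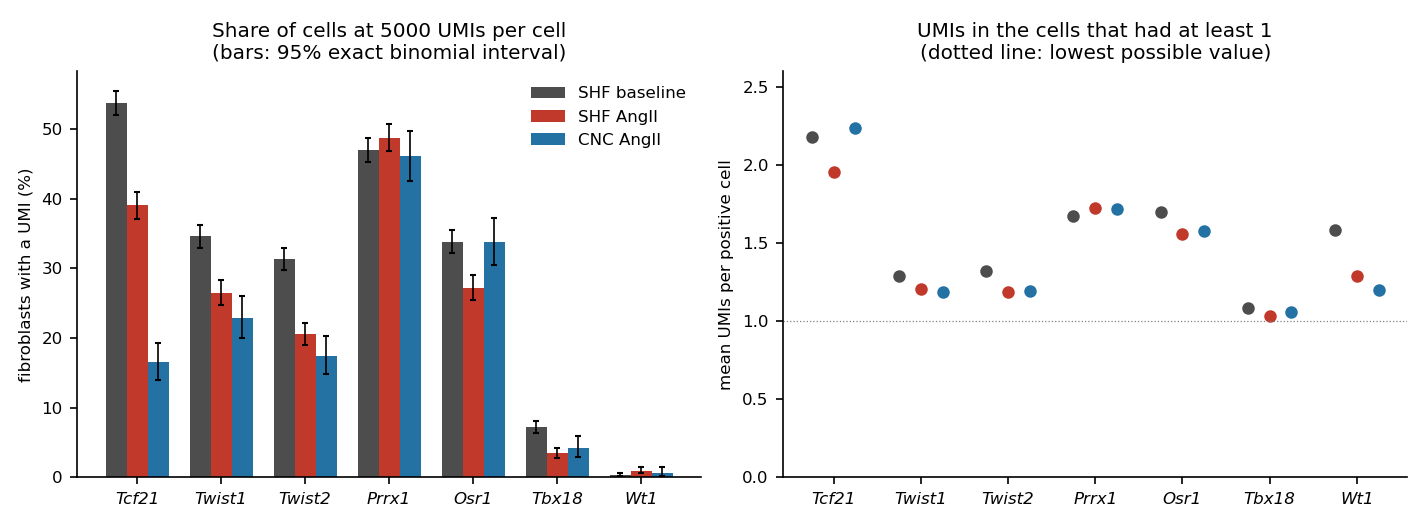
Left, share of fibroblasts (%) with a UMI of each gene at 5000 UMIs per cell, with 95% exact binomial intervals; right, mean UMIs in the cells that had at least 1. For Tcf21 the share steps from 53.8% to 39.0% to 16.5%, while the mean per positive cell stays between 1.96 and 2.24.

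Under AngII, Tcf21 was the 1 member that set CNC apart from SHF past 2-fold, in both cell types. In fibroblasts Tcf21 was at 62.7 CPM in CNC and 135 in SHF, 2.15-fold lower, a log2 ratio of -1.11 (-1.22 to -0.996). In smooth muscle the sums gave 0.428 and 13.7 CPM, a log2 ratio of -4.98. The CNC level there overlaps the free RNA background, for which the SHF library has no estimate, so that ratio too describes the sums alone. Among all genes 0.441% were lower by 2-fold in CNC fibroblasts (1.57% in either direction) and 1.03% in CNC smooth muscle (2.6% in either direction), and these tables share 1 gene list. The ratio was past 2-fold in 13 of 15 alternatives in fibroblasts, with -0.87 under tighter gates, and in 15 of 15 in smooth muscle. Without smooth muscle cells that hold Dcn it was -4.79.

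The other members differed less between the AngII libraries. In fibroblasts Tbx18 was at 0.54 (0.24 to 0.83) and Osr1 at 0.34 (0.24 to 0.44), both higher in CNC, with Twist2 at -0.26, Twist1 at -0.20, Prrx1 at -0.12 and Wt1 at -0.36 (-1.14 to 0.29). In smooth muscle Twist2 was at -0.61 (-0.81 to -0.41), Twist1 at -0.57 (-0.65 to -0.50), Osr1 at 0.14, Tbx18 at -0.12 (-0.23 to -0.02) and Prrx1 at 0.05 (-0.01 to 0.12). The Twist2 value in smooth muscle was -0.18 in cells without Dcn. Macrophage markers stood at 169 CPM in CNC fibroblasts against 18.8 in SHF AngII fibroblasts, and their part in these ratios was not tested. Both contrasts use the SHF AngII library, so they are not independent of each other.

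The lower Tcf21 level in CNC was seen on both sides of the Pi16 split. In Pi16-positive fibroblasts Tcf21 was at 238, 129 and 59.8 CPM, and in Pi16-negative ones at 206, 182 and 64.8. The ratio of CNC over SHF AngII was -1.11 in the first and -1.48 (-1.82 to -1.17) in the second, where it lay at -0.50 under tighter gates. Lower by 2-fold were 0.525% and 5.07% of all genes. In the 127 Pi16-negative CNC cells Tcf21 was found in 17. Summed macrophage markers stood at 672 CPM in these cells, against 15.4 in Pi16-negative SHF AngII cells. Their part in the ratio was not tested.

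The Pi16 split separated 1 member at baseline, Osr1. Pi16-positive cells (3115, 2201 and 640 in that order of libraries) stand against 550, 265 and 127 Pi16-negative cells, with 274, 174 and 75 cells between them at 1 Pi16 UMI. Osr1 was at 129 CPM in Pi16-positive and 41.8 in Pi16-negative baseline fibroblasts, 3.08-fold higher, a log2 ratio of 1.62 (1.43 to 1.83) that was past 2-fold in 15 of 15 alternatives. Of all genes 3.08% were higher by 2-fold there and 8.37% past it in either direction. The cells with 1 Pi16 UMI lay near the negative ones, at 52.9. No other member with the minimum level passed 2-fold at baseline: Tbx18 was at 0.71, Twist2 0.30, Prrx1 0.25, Tcf21 0.21 and Twist1 -0.30.

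In the AngII libraries Osr1 did not follow Pi16 in this way, at 77.2 and 109 CPM in Pi16-positive and Pi16-negative SHF AngII cells and at 102 and 96.2 in CNC AngII. The SHF AngII value for negative cells depended on few cells. Of the 265 cells, 10 held a UMI of Msln or Upk3b, which mark mesothelium, the sheet that covers organs. These 10 held 208 of the 389 Osr1 UMIs (53.5%) and 28 of the 32 Wt1 UMIs (87.5%). Without them Osr1 was at 54.1 and Wt1 at 1.20 CPM, where it had been 109 and 8.93. Osr1 over baseline in Pi16-negative cells was then 0.37 where it had been 1.38, and the ratio of Pi16-positive to negative in SHF AngII was 0.51 where it had been -0.49.

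Wt1 was the 1 member past 2-fold between the Pi16 gates in both AngII libraries, at -2.34 (-2.95 to -1.67) in SHF and -1.44 (-2.82 to 0.28) in CNC. Among all genes 4.77% and 6.51% were lower by 2-fold, and 6.39% and 9.99% past it in either direction. Without the cells that hold Msln or Upk3b the SHF value was 0.42 and the CNC value -0.56, so neither was past 2-fold. In Pi16-negative CNC cells this left out 1 cell, with 3 of the 6 Wt1 UMIs. In Pi16-positive SHF AngII cells, 14 such cells held 0 of the 69 Wt1 UMIs. Of the 108 Wt1 UMIs in all SHF AngII fibroblasts, such cells held 28. In the gate of mesothelial cells (at least 2 UMIs of Msln and Upk3b together, at most 2 of Myh11; 12, 37 and 3 cells) Wt1 stood at 176, 156 and 128 CPM. Tbx18 stood there at 83.9, 56.7 and 96.2, and Osr1 at 75.5, 677 and 417. This gate sets no limit on Pdgfra, so it can share cells with the fibroblast gates. The Pi16-negative gate of baseline held 0 cells with Msln or Upk3b.

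**Figure D5:**
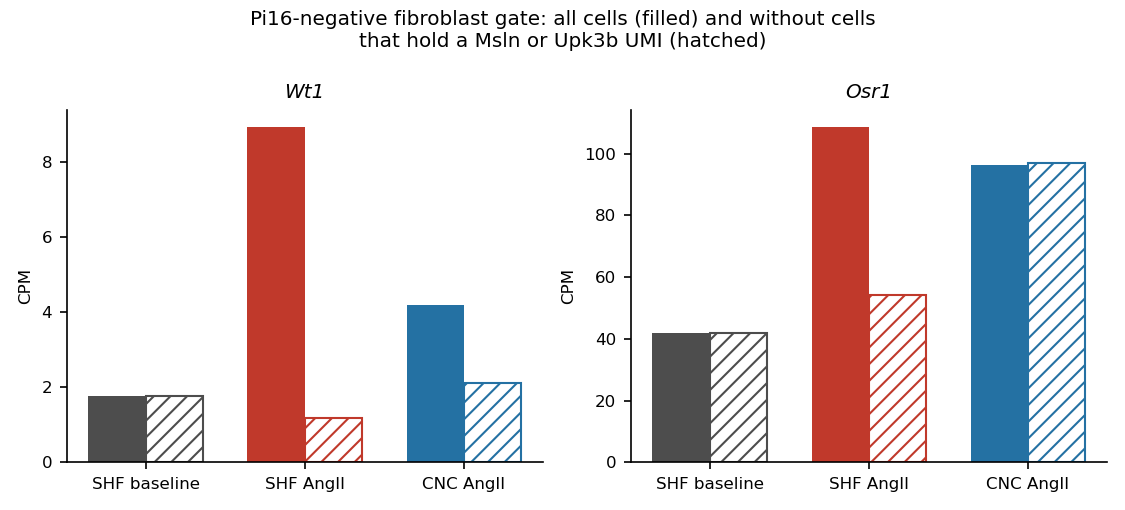
Level of Wt1 and Osr1 (CPM) in Pi16-negative fibroblasts of each library, with all cells (filled) and without cells that hold Msln or Upk3b (hatched). In SHF AngII, Wt1 goes from 8.93 to 1.20 and Osr1 from 109 to 54.1.

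Fibroblasts with Cthrc1 held less Tcf21 than all fibroblasts of their library, a group that includes them. Cthrc1 encodes a secreted protein of matrix-producing fibroblasts, and cells with at least 2 of its UMIs numbered 209, 1359 and 367. In them Tcf21 was at 105 (93.6 to 118), 105 (101 to 109) and 42.9 (38.0 to 48.3) CPM, against 236, 135 and 62.7 in all fibroblasts. Thus within this gate both SHF libraries had a like Tcf21 level. Prrx1 was there at 232, 197 and 176, against 158, 175 and 161, a small difference in both AngII libraries. Twist2 was at 40.4, 43.0 and 32.1, against 79.9, 45.3 and 37.9 in all fibroblasts, so that it was far lower at baseline and little lower under AngII, and Osr1 at 169, 71.1 and 89.8. Cells of this gate were deeper, with medians of 13046, 20581 and 15979 UMIs.

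In cells with at least 2 UMIs of Comp or Chad, matrix genes of cartilage and tendon (277, 450 and 228 cells), Tcf21 was at 202, 104 and 24.5 CPM and Prrx1 at 144, 195 and 199. In cycling fibroblasts (at least 2 UMIs of Mki67 and Top2a), of which baseline had 9, SHF AngII 373 and CNC AngII 106, Tcf21 was at 374 (288 to 478), 120 (113 to 128) and 62.1 (52.0 to 73.7). The last 2 lie close to those of all fibroblasts in the same library. Gates share cells, and a cell can be in several.

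At 5000 UMIs a fibroblast held 2.08, 1.66 and 1.42 of them on average and a smooth muscle cell 1.09, 0.954 and 0.890. None of the 7 was seen in 6.11%, 11.8% and 18.6% of fibroblasts, and 3 or more in 34.1%, 20.4% and 13.7%. Tcf21 and Twist2 were found together more often than their shares give: 652 cells where 542 would be expected at baseline, then 236 for 201 and 34 for 22.1 under AngII, ratios of 1.20, 1.18 and 1.54. Twist1 and Twist2 were together less often, at 0.87, 0.90 and 0.82, and so were Tcf21 and Prrx1, at 0.93, 0.88 and 0.80. The pair Tbx18 and Osr1 was at 1.17, 1.20 and 1.79, on 92, 28 and 20 cells. These are descriptions of cells within 1 library each, and ratios from few cells carry little weight.

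The genes whose levels followed those of each member most closely over 9 groups (3 libraries by Pi16-positive fibroblasts, Pi16-negative fibroblasts and smooth muscle) were, by Pearson correlation of log2 levels among 6854 genes, Fbln1 (0.979), Dcn (0.976) and C1ra (0.974) for Tcf21. For Twist2 they were Lama2, Sertad4 and Abca8a (0.995 to 0.996), for Prrx1 Nsg1, Cmtm3 and Sri (0.995 to 0.997), and for Twist1 Ksr1, Tap2 and Crispld2 (0.982 to 0.985). For Tbx18 they were Capza2, Nox4 and Adam33 (0.952 to 0.973). Osr1 had the least close neighbours, Anxa3 (0.880), Sar1b (0.863) and Sike1 (0.847). Wt1 is given no neighbours, since it had 0, 16 and 1 UMIs in the smooth muscle groups and its highest group rests on 10 cells with mesothelial genes. The same 10 cells held 53.5% of the Osr1 UMIs in that group, so the Osr1 neighbours rest on them in part. Some neighbours varied little over the groups, such as Sar1b (82.4 to 104 CPM), Sike1 (30.2 to 41.1) and Capza2 (139 to 209). The neighbours are the closest of many genes over few groups, and the 9 groups share libraries.

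Some partners and relatives of these factors were lower by 2-fold in SHF AngII fibroblasts, in shares that varied between the lists. Of 11 bHLH partners, inhibitors and relatives with the minimum level, 3 were lower and 0 higher by 2-fold over baseline, with a median log2 ratio of -0.84. Tcf4, an E protein that pairs with bHLH factors, was at 94.5 against 319 CPM (-1.76), Id2, an inhibitor of E proteins, at 133 against 313 (-1.23), and Tcf12, another E protein, at 30.3 against 69.3 (-1.19). Of 4 T-box relatives 3 were lower (Tbx3, Tbx5 and Tbx20), with Tbx20, a cardiac T-box factor, at 4.12 against 33.1 CPM (-3.00). Of 9 homeobox relatives of Prrx1, 0 were past 2-fold in either direction, with a median of -0.60.

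Of 12 zinc finger relatives 4 were lower and 1 higher. Snai1, a repressor that acts in epithelial to mesenchymal transition, was at 80.5 against 29.7 CPM (1.44), whereas Gli1, a Hedgehog target, was at 7.59 against 19.7 (-1.37) and Zeb2 at 62.0 against 151 (-1.28). Of 16 other fibroblast transcription factors 6 were lower and 0 higher, with Nfia at 134 against 483 (-1.84), Ebf1 at 122 against 429 (-1.82) and Ebf2 at 23.5 against 65.3 (-1.47). These counts stand beside 14.9% of all genes lower and 6.44% higher by 2-fold, with a median of -0.29 over all genes.

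Genes of adventitial fibroblasts were lower too, 7 of 11 with 0 higher, among them Sema3c at 32.3 against 212 CPM (-2.71) and Clec3b at 304 against 1315 (-2.11). Activation genes were higher, 6 of 10 with 0 lower, among them Cthrc1 at 682 against 34.4 (4.31) and Lox, a collagen cross-linking enzyme, at 1178 against 246 (2.26). Of 6 epicardial and mesothelial genes with the minimum level, 4 were higher in SHF AngII, where the mesothelial cells named above lie. In smooth muscle 1 of 9 bHLH relatives was past 2-fold, beside 10% of all genes in either direction, so this count is near the background. It was Scx, a tendon factor, at 187 against 39.7 CPM (2.23), where Tcf21, Twist1 and Twist2 were lower.

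Between the AngII libraries few of the relatives passed 2-fold in fibroblasts. Of 9 bHLH, 8 homeobox and 12 zinc finger relatives, 0 were past 2-fold, and of 16 other fibroblast factors 1 was lower, Foxf1 at 2.27 against 5.26 CPM, beside 1.57% of all genes in either direction. Of 2 T-box relatives 1 was higher in CNC, Tbx20 at 9.25 against 4.12 (1.17), with a median of 0.62 for the pair. Of 7 epicardial and mesothelial genes Aldh1a2, an enzyme of retinoic acid synthesis, was higher, at 23.7 against 8.28 (1.52), and Upk3b lower, at 1.92 against 4.14 (-1.08). Foxf1, Tbx3, Tbx5, Tbx20 in CNC and Upk3b lie below the level set for naming and were named after their values were seen. The adventitial genes (11) and the activation genes (10) had 0 past 2-fold, with medians of -0.14 and -0.02. In smooth muscle 5 of 8 adventitial genes were lower by 2-fold in CNC, with a median of -1.56, beside 1.03% of all genes. The Tcf21 sum was lower there too, but its CNC level is not read as expression. Fibroblasts were 28.4% of kept cells in SHF AngII and 8.26% in CNC AngII, and the part of their free RNA in these ratios was not tested.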

How the data were processed

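Male mouse aorta was profiled with a droplet kit that captures transcript 3′ ends, per the labels' protocols. The deposited tables hold raw UMI counts, unnormalised, for each gene in each barcode. Submitters' processing notes name fastp, STAR 2.5, HTSeq 0.6.1 and mm10 with no role. The cell counter and the annotation are not given in the sources used here. Columns of other samples numbered 0.

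A cell needed 500 detected genes and no more than 10% of its UMIs from mitochondrial genes (8374 cells of SHF baseline, 9299 of SHF AngII, then 10194 of CNC AngII). Scrublet (scanpy 1.11.5) marked 207, 192 and 279 doublets (2.29%, 1.96% and 2.61%), which were left out. Table names were matched directly or, for 515 genes, through a synonym. Each gate's UMIs were added up per gene and scaled to CPM by the gate's total. Ratios are log2 with 0.5 UMI added to each sum, with conditional binomial intervals. Genes with a mean of at least 2 CPM were counted, and 2-fold is the threshold. Levels have exact Poisson and shares exact Clopper-Pearson intervals. With 1 library per group no test was made. TMM factors came from edgeR 4.0.16. The ratios and intervals were tested on simulated data.

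The members and lists were chosen with earlier results of these data known. Named genes are all 7 members, up to 3 genes per list and comparison past 2-fold with at least 10 CPM and the largest ratio (not every one is printed), and the 3 genes most like each member, Wt1 not printed, among those with at least 20 CPM in their highest group. Alternatives were other cell filters, doublets kept, tighter or Dcn-based gates, cycling cells left out, thinning, other totals and scalings, means over cells, another pseudocount, subtraction of 5% of the library profile and other gene minimums. Leaving out mesothelial cells, and smooth muscle cells with Dcn, was chosen after seeing the data.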

Additional observations from a re-analysis of the deposited data

Results flagged for a closer look

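Pairs of cell groups differed in direction under the same contrast for 3 genes, with counting intervals on opposite sides of 0. These differences were not tested, since each library is alone in its group. Tbx18 in CNC over SHF AngII was 0.54 in fibroblasts and -0.12 in smooth muscle, the second turning to 0.07 when cells were thinned to 5000 UMIs. Prrx1 in SHF AngII over baseline was 0.15 in fibroblasts and -0.14 in smooth muscle, the second turning to 0.04 under TMM scaling. Osr1 in SHF AngII over baseline was 1.38 in Pi16-negative and -0.74 in Pi16-positive fibroblasts, the first at 0.37 without cells that hold Msln or Upk3b.

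The mesothelial gate was not compared as a group, though cells of it that hold Pdgfra also fall in the fibroblast gates. Levels in it lay above the interval of SHF baseline in 3 instances. Osr1 stood at 677 CPM in 37 SHF AngII cells and at 417 in 3 CNC AngII cells, where 12 baseline cells gave 75.5 (34.5 to 143). Prrx1 stood at 60.2 in SHF AngII, where baseline had 0 UMIs, with an upper limit of 31.0.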

How the results depend on the processing

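For 89 ratios of members, 15 alternatives gave 1335 values, of which 1100 lay within the counting interval of the reported value, 232 outside it, and 3 had the other sign from a reported 2-fold difference. Those 3 are Wt1 without mesothelial cells: Pi16-positive over negative in SHF AngII 0.42, SHF AngII over baseline in Pi16-negative cells -0.48, and CNC over SHF AngII in those cells 0.87. The cause beyond the leaving out of those cells was not tested.

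Counts of members past 2-fold moved as follows, and for the other settings the cause was not tested. Pi16-positive over negative at baseline had 1, and 2 with Dcn gates or no gene minimum. In SHF AngII it had 1, and 0 without mesothelial cells or with a minimum of 10 CPM. In CNC AngII it had 1, then 0 under the stricter cell filter, thinning, a pseudocount of 1 CPM, no mesothelial cells or the minimum of 10, and 2 under tighter gates. SHF AngII over baseline in fibroblasts had 1, and 0 with Dcn gates, TMM or median-of-ratios scaling, means over cells or the larger pseudocount. In smooth muscle it had 0, then 2 under the stricter cell filter and 1 with no minimum. CNC over SHF AngII in fibroblasts had 1, then 0 under tighter gates or means over cells and 2 with Dcn gates. In smooth muscle it had 1, then 0 with the minimum of 10 and 2 with no minimum. Fibroblast over smooth muscle counts stayed within 1.5 times.

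No paired analysis was possible because each group is 1 library and no comparison holds 2 pairs. Depth limits Wt1 (at most 108 UMIs in a fibroblast gate) and Tbx18 and Wt1 in the small CNC gates. Intervals cover counting error and not mice or library making, for which there is no estimate.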

Other observations

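Twist1 was higher in endothelial cells than in fibroblasts of each library. In cells with at least 2 Pecam1 UMIs, 1 of Cdh5 and 0 of Pdgfra (49, 29 and 29 cells) it stood at 166 (130 to 210), 249 (197 to 310) and 225 (165 to 300) CPM in SHF baseline, SHF AngII and CNC AngII, where fibroblasts had 90.3, 68.6 and 59.7. Tcf21 and Twist2 had 0 UMIs there at baseline and in CNC AngII and 3 each in SHF AngII, while Prrx1 had 2, 5 and 1 and Osr1 1, 4 and 2. These cells are few, and 1 CNC cell held 23 of the 46 Twist1 UMIs.

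Fibroblasts with and without Tcf21 were compared at 5000 UMIs per cell (1732 and 1490 cells in SHF baseline, 977 and 1527 in SHF AngII, 127 and 642 in CNC AngII). This split uses a measured value and was made after the levels were seen, so its values are a description. Among 4435 genes with at least 20 CPM, 1 was past 2-fold higher and 1 lower in all 3 libraries. Smim41 was higher in cells with Tcf21, at 1.05, 1.08 and 3.15 as log2 ratios, and Spp1, which encodes the matrix protein osteopontin, was lower, at -1.96, -1.05 and -3.03. Twist2 was higher by 0.80, 0.45 and 1.12, and Cthrc1 was at -1.34, -0.96 and -0.46. Dcn was at -0.01, 0.11 and 1.21 and Acta2, a marker of smooth muscle, at 0.04, 0.39 and -0.98. In CNC AngII the sides thus differed in cell type markers too. Before thinning, cells with Tcf21 were shallower, with medians of 9973.5, 14050 and 10315 UMIs against 11069, 17542 and 13636. The part of these differences in the Smim41 and Spp1 ratios was not tested. Genes past 2-fold were 0.604%, 0.382% and 6.77% of those compared in each library.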
